A study of Mus musculus with 6 samples.

Results

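The sites described here are the listed cytosines whose annotation places them in a promoter, that is, at a transcription start. They were taken from both of the authors' deposited tables, 1 of cytosines more methylated and 1 of cytosines less methylated without Tet1, as every row annotated as promoter. There were 725 such sites among 6756 listed cytosines, and they belonged to 445 of the 3344 genes named in the tables. Of these sites 703 were hypermethylated (11.2% of 6270, exact 95% interval 10.4 to 12.0%) and 22 were hypomethylated (4.53% of 486, 2.86 to 6.77%). The hypermethylated sites named 429 genes and the hypomethylated sites 17, with 3110056O03Rik in both.

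The study compared DNA methylation in LSK cells, the fraction of mouse bone marrow that holds blood stem and early progenitor cells, sorted by flow from 3 Tet1 KO and 3 WT samples. All 6 samples came from 6-month-old mice of the strain the labels write as CD57BL/6, and they were read by reduced representation bisulfite sequencing (RRBS). The labels do not give the sex of the mice, the design of the Tet1 allele, or whether each sample was a separate animal, and the tables do not allow a check of the knockout itself. Each table holds 1 difference per cytosine over all samples, in percentage points, read here as Tet1 KO minus WT from the sign and the name of each table. No value per sample was analysed here, so the spread between replicates and the depth behind a difference are unknown, and no difference below carries a test. Intervals are exact Clopper-Pearson 95% intervals and cover counting error only, and neighbouring cytosines are not independent.

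Tet1 is an enzyme that oxidises 5-methylcytosine at CpG dinucleotides to 5-hydroxymethylcytosine and further products, a step on the way to unmethylated cytosine. Many mammalian promoters lie in CpG-rich stretches that stay unmethylated in most tissues, and dense methylation at a promoter commonly goes with a silent gene. Bisulfite sequencing reads 5-methylcytosine and 5-hydroxymethylcytosine alike, so a listed difference is one of their sum.

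Promoter sequences were read from RefSeq windows (GRCm38.p6) by the distance of each site to the start, since the deposited positions are those of mm9. The windows held 336 of the 445 promoter genes (75.5%), which is below 80%, so a comparison of CpG content over the whole set would be void and was not made. Of 159 listed cytosines that fell inside a window, 115 (72.3%, 64.7 to 79.1%) landed on a CG. With positions moved by 2 bp, 6.33 to 9.43% did. Moves of 1 bp gave 0 to 0.629%, but that is low by construction. The base beside the C of a CG cannot be the C of another. At 66 of 91 promoters every listed cytosine inside the window landed on a CG, at 23 none did and at 2 some did.

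Stretches of 4 hypermethylated promoters that carry many of the sites are shown here first, 5′ to 3′ on the strand of the gene, with the listed CpGs in capitals. The Acot12 stretch is chr13:91741342-91741550 (plus strand, -179 to 29 from the start) and holds 9 of its 11 sites. Cspg4 is shown at chr9:56865006-56865087 (plus strand, -98 to -17) with 4 of its 9 sites, and D130017N08Rik at chr5:143758293-143758383 (plus strand, -61 to 29) with all 7. Osmr is shown at chr15:6874449-6874520 (minus strand, -207 to -136) with all 5 of its sites. In each stretch listed and unlisted CpGs stand side by side, with 9 of 17 listed at Acot12, 4 of 7 at Cspg4, 7 of 10 at D130017N08Rik and 5 of 10 at Osmr.
Acot12: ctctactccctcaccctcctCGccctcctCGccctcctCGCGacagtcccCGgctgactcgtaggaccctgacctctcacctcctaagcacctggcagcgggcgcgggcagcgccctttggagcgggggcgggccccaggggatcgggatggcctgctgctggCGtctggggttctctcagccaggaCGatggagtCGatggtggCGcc
Cspg4: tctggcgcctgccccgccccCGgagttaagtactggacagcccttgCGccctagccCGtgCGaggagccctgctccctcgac
D130017N08Rik: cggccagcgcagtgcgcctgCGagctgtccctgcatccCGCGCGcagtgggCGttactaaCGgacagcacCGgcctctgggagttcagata
Osmr: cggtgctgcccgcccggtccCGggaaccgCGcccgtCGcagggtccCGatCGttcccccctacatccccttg

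Hypomethylated promoters of 3 genes are shown in the same way, Mid1 and Sema4b because each listed cytosine met a CG and Ammecr1 because it had the most hypomethylated promoter sites. Mid1 is at chrX:169879574-169879615 (plus strand, -45 to -4, 1 of 6 CpGs listed) and Sema4b at chr7:80186761-80186802 (plus strand, -109 to -68, 1 of 4). Ammecr1 is at chrX:142966724-142966815 (minus strand, -89 to 2, 4 of 15). The 4 Ammecr1 sites met no CG at their deposited distances, and 1 shift of 248 tried, by -2 bp, put all 4 on a CG, so its placement is less certain than the others.
Mid1: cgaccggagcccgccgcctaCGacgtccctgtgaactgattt
Sema4b: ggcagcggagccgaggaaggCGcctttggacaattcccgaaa
Ammecr1: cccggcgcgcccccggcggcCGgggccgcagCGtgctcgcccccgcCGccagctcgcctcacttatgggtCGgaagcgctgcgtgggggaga

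Which CpGs can be read depends on where the method cuts. RRBS commonly cuts DNA with MspI at CCGG, a palindrome with the same letters on both strands, and reads inwards from the cut. All 66 fully placed windows held CCGG, and each was chosen for holding a listed site, against 52.8% of the 32851 RefSeq windows of the same length. In those 66 windows 113 of 1066 CG (10.6%, 8.82 to 12.6%) were listed. Of the listed CG 91.2% lay within 50 bp, the read length, of a CCGG, and of all CG in the windows 68.2% did. Which unlisted CpGs were read was not analysed here, so an unlisted CpG cannot be taken as unchanged.

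Hypermethylated promoter sites differed by a median of 41.2 percentage points (39.9 to 42.6), with a range from 25.1 to 90.3 and an SD over sites of 12.5. The middle of the distribution ran from 33.7 to 51.5 percentage points between its quartiles. Listed hypermethylated sites outside promoters had a median of 41.1 percentage points (40.6 to 41.6). Promoter sites of at least 60 percentage points numbered 78 (11.1%, 8.87 to 13.7%), beside 12.4% outside promoters (11.6 to 13.3%). Each median lay inside the interval of the other, so the size of the listed gain was alike in and out of promoters.

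Hypomethylated promoter sites had a median of -37.6 percentage points (-42.3 to -29.4) and ranged from -55.3 to -25.8. Outside promoters the median of the hypomethylated sites was -34.0 percentage points (-35.1 to -32.9), inside the interval of the promoter median. Over sites, the promoter median lay outside the interval of the sites outside promoters. Over the means of joined regions, defined below, it did not. There the promoter median was -34.9 percentage points, beside -33.9 (-35.05 to -32.86) outside promoters. None of the 22 promoter losses reached 60 percentage points, which allows a share of up to 15.4%, and 14 of 464 losses outside promoters did. At 40 percentage points or more stood 7 of the 22 (31.8%, 13.9 to 54.9%) and 29.1% of those outside.

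The largest single differences in the authors' deposited table of hypermethylated promoter sites were at 5 genes. Oxct2a, a testis form of an enzyme that uses ketone bodies, had the highest at 90.3 percentage points, 65 bp after its start on chromosome 4 (123000857). That gene had 9 further hypermethylated sites outside its promoter, with a mean of 75.1 percentage points. Prr18, a proline-rich protein gene, stood at 88.9 percentage points at -10 bp and at 38.9 at 20 bp, so its high site had a much lower neighbour. The microRNA gene Mir9-2 had 87.7 at 99 bp and 34.5 at 87 bp, again a high site beside a low one. Usp2, a ubiquitin peptidase gene, had a single promoter site of 83.5 percentage points at -727 bp. Tmem171, a transmembrane protein gene, had 81.9 percentage points at -480 bp, the highest of its 5 sites.

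Distances were measured to the nearest transcription start, with negative values upstream. The site's own annotated transcript was the nearest one for 597 hypermethylated and 16 hypomethylated sites, and all 613 lay between -1000 and 100 bp, which is taken here as the reach of the promoter label. The 597 hypermethylated sites had a median of -293 bp (-342 to -248), and 490 of them (82.1%, 78.8 to 85.1%) were upstream. With a reach of 1000 bp upstream and 100 bp downstream, this share follows in part from the label.

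Per 100 bp within the reach of the promoter label, hypermethylated sites were denser near the start than far upstream. There were 40 sites per 100 bp from -1000 to -751 bp and 36.4 from -750 to -501 bp. The density was 52.0 from -500 to -251 bp, 64.0 from -250 to -101 bp and 73.0 from -100 to -1 bp. From the start to 100 bp after it 107 sites lay, or 105.9 per 100 bp. The median difference in the same order was 41.6, 41.7, 38.4, 37.5, 44.2 and 44.3 percentage points, so the bins next to the start had the highest medians and the bins before them the lowest. How many CpGs were read in each bin is unknown, and its part in these densities was not tested. Because the label ends at 100 bp, the bins do not show a peak at the start. Of all listed hypermethylated sites, promoter or not, 524 lay from -1000 to -1 bp of the nearest start. From 1 to 1000 bp after it lay 1119.

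**Figure D1:**
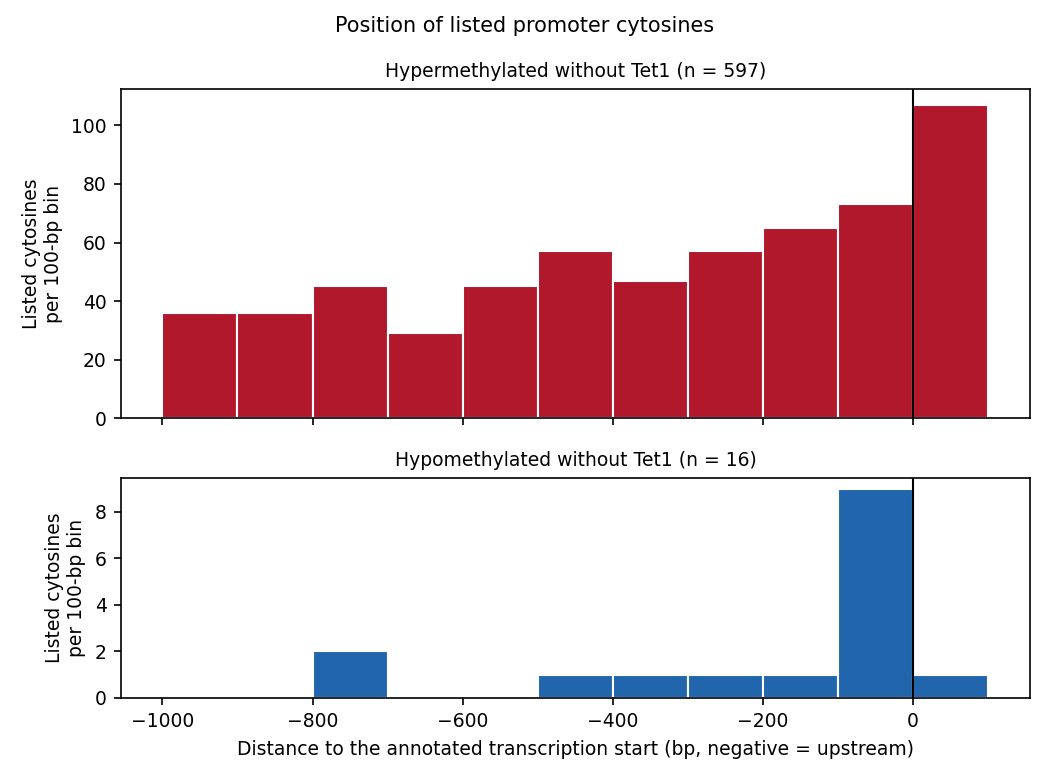
Number of listed promoter cytosines (y axis) in 100-bp bins of distance to the annotated transcription start (x axis, bp, negative upstream; the last bin runs from 0 to 100 bp), for 597 hypermethylated (top) and 16 hypomethylated sites (bottom). The tallest bar of the upper panel is the bin after the start with 107 sites, and that of the lower panel is the bin just before the start with 9. The promoter label ends at 100 bp, so listed sites farther downstream are not shown.

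For 106 hypermethylated and 6 hypomethylated sites another transcript started closer than the annotated one. The 6 were the sites of 3110056O03Rik, Flcn, Mtcp1, Serpina1a, Timm17b and Vrtn. Of the 106, 68 lay over 100 bp after that nearest start, so they are promoter sites of 1 transcript and lie within or beyond the first stretch of another. Naa35, a subunit gene of a protein N-terminal acetyltransferase, was such a case, with 4 reverse-strand sites at 852 to 881 bp and a mean of 65.9 percentage points. Those 4 sites gave the highest mean of any gene with at least 3 hypermethylated promoter sites, with an SD over sites of 2.75.

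The 16 hypomethylated sites next to their own start sat close to it, with a median of -61.5 bp. Of these, 9 lay from -100 to -1 bp, and 7 of the 9 came from Ammecr1 and Ercc6l. The other 2 were the single sites of Mid1 and Sema4b printed above, so the 9 sites stand for 4 genes.

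**Figure D2:**
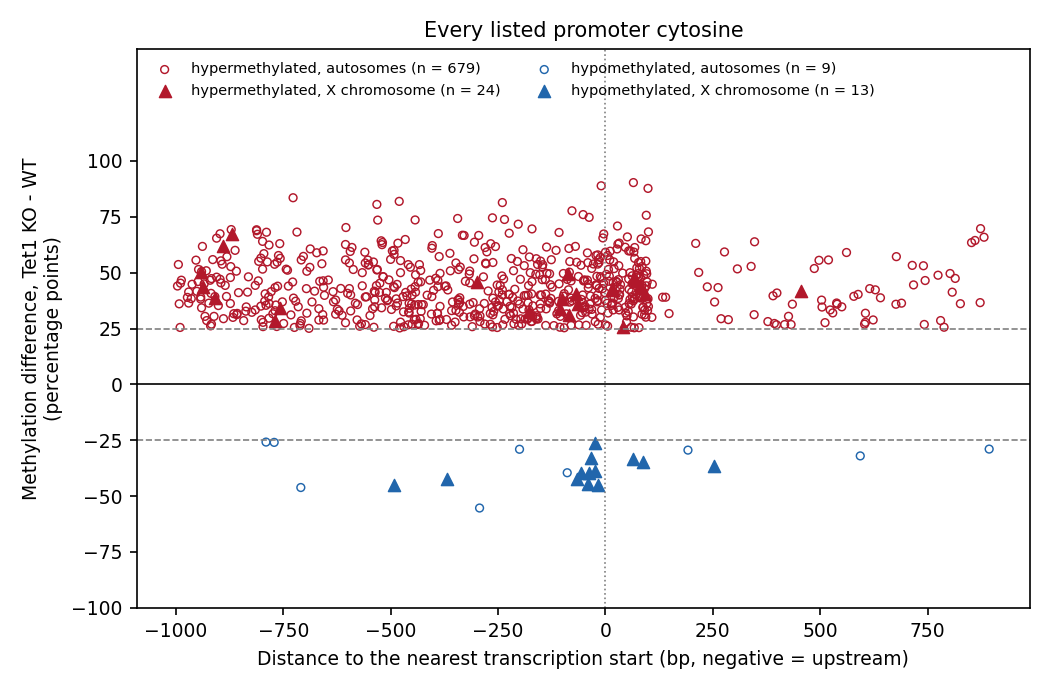
Methylation difference of each of the 725 listed promoter cytosines (y axis, Tet1 KO minus WT, percentage points) against distance to the nearest transcription start (x axis, bp). Open circles are autosomal sites and filled triangles X-linked sites, red for 703 hypermethylated and blue for 22 hypomethylated sites; dashed lines mark the 25 percentage points at which the tables begin. Of the 13 hypomethylated X-linked triangles 10 lie within 100 bp of a start, and of the 9 hypomethylated autosomal circles 1 does. The 13 triangles stand for 8 genes, with 7 of them at Ammecr1 and Ercc6l, and the 9 circles for 9 genes.

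To see how far promoter sites cluster, neighbours with the same sign and under 1000 bp between them were taken as 1 region. The 703 hypermethylated sites formed 429 regions, of which 290 held a single site, 139 (32.4%, 28.0 to 37.1%) held at least 2 and 21 held at least 5. Outside promoters 31.3% of hypermethylated regions (29.8 to 32.9%) held at least 2 sites. The 139 multi-site regions had a median span of 42 bp, and 81 of them (58.3%) fitted on 1 strand within the 50-base read length, beside 58.6% outside promoters. Cytosines that close can be read on the same molecules. Sites on both strands occurred in 38 of the 139.

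Of the 139 multi-site regions 80 held 2 sites. The median SD within the 139 regions was 6.91 percentage points, beside 6.99 in multi-site regions outside promoters, and pairs such as those of Prr18 and Mir9-2 lay far wider. In 8 of the 139 regions at least 2 sites had exactly the same deposited value. The same CpG was listed on both strands 7 times, and its values differed by a median of 7.96 percentage points (1.91 to 16.2). Plcd1, a phospholipase C gene, had the widest gap, 60.03 against 43.8 percentage points, and Ppp6r2, a phosphatase regulatory subunit gene, the narrowest, 34.7 against 32.8. These pairs are the nearest thing in the tables to a repeated measurement, since the strands are read separately. A pair is seen only where both strands were listed with the same sign, so CpGs whose strands differ more can be missed.

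Acot12, an acyl-CoA thioesterase gene that releases acetate from acetyl-CoA, had the most promoter sites. Its 11 sites on chromosome 13 (91880797 to 91881156), all on the reverse strand, ran from -329 to 30 bp and averaged 48.1 percentage points (SD over sites 10.4). The authors' deposited table gives 66.7 at -329 bp, then 53.7, 40, 46.9, 33.8 and 44.6 from -158 to -128 bp. It gives 54.5 at -15 bp and 48.5, 33.3, 60.6 and 46.9 percentage points from 9 to 30 bp after the start. The site farthest upstream was the highest, and the rest ranged from 33.3 to 60.6 percentage points with no order along the promoter.

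Cspg4, the gene of the NG2 proteoglycan of pericytes and glial precursors, had 9 promoter sites in 2 groups either side of its start on chromosome 9 (56712833 to 56713011). On the forward strand at -78, -52, -42 and -38 bp the authors' deposited table gives 77.7, 76.0, 58.9 and 74.8 percentage points. On the reverse strand at 80, 83, 85, 95 and 100 bp it gives 39.1, 65.1, 44.3, 75.7 and 68.3. The groups overlap in value, and the lowest sites, at 80 and 85 bp, are on the downstream side. Its mean of 64.4 percentage points was above that of its 4 hypermethylated sites outside the promoter, 34.6.

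Another 8 genes held from 6 to 8 promoter sites each, and 3 of these are non-coding RNA genes. For 6030422M02Rik, a protein-coding gene known by its clone name, 8 forward-strand sites from -32 to 11 bp averaged 54.0 percentage points with an SD over sites of 4.90. The non-coding RNA gene 4933431E20Rik had 8 sites averaging 49.2, of which 3 on the reverse strand had the same value of 46.7 in the authors' deposited table. D130017N08Rik, also a non-coding RNA gene, had 7 sites from -40 to 10 bp averaging 51.2 (44.5 to 59.2). Another non-coding RNA gene, 4833428L15Rik, had 6 sites averaging 47.8 (34.1 to 70.2), and Nsg1, a gene of a neuronal endosome protein, had 6 from -923 to -757 bp averaging 52.1 (36.4 to 67.4).

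Cnga3 and Trpm6 are channel genes, the first for the cyclic nucleotide-gated channel of cones and the second for a magnesium channel of kidney and gut. Each had 6 sites, averaging 44.6 percentage points at Cnga3 and 44.9 at Trpm6. At Cnga3 the authors' deposited table gives 74.3 percentage points at -344 bp beside 36.9 at -356 bp, so 1 site stood well above its neighbour. Aldh1l1, an enzyme gene of folate metabolism, had 6 sites averaging 42.3 percentage points (36.0 to 50.98).

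The genes with 5 promoter sites covered a wide range of size. Tmem171 averaged 64.9 percentage points, with 81.9, 64.8 and 73.6 from -480 to -443 bp and 50.9 and 53.1 nearer the start, so the upstream group lay above the other. Osmr, the oncostatin M receptor gene, had the lowest mean and the smallest SD over sites, 2.00, of all genes with 5 or more promoter sites. Its sites averaged 29.9 percentage points (28.2 to 33.4), and 3 of them had the same value of 29.3 in the authors' deposited table. The others with 5 sites were Steap4 (49.9 percentage points, a metalloreductase), Abca3 (37.6, a lipid transporter), Neurl2 (56.9), Nphs1as (52.2, antisense to nephrin), Ppfia2 (43.8, a liprin), Pdha1 (35.9, pyruvate dehydrogenase), Mir671 (62.3) and Lhx3 (40.8).

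**Figure D3:**
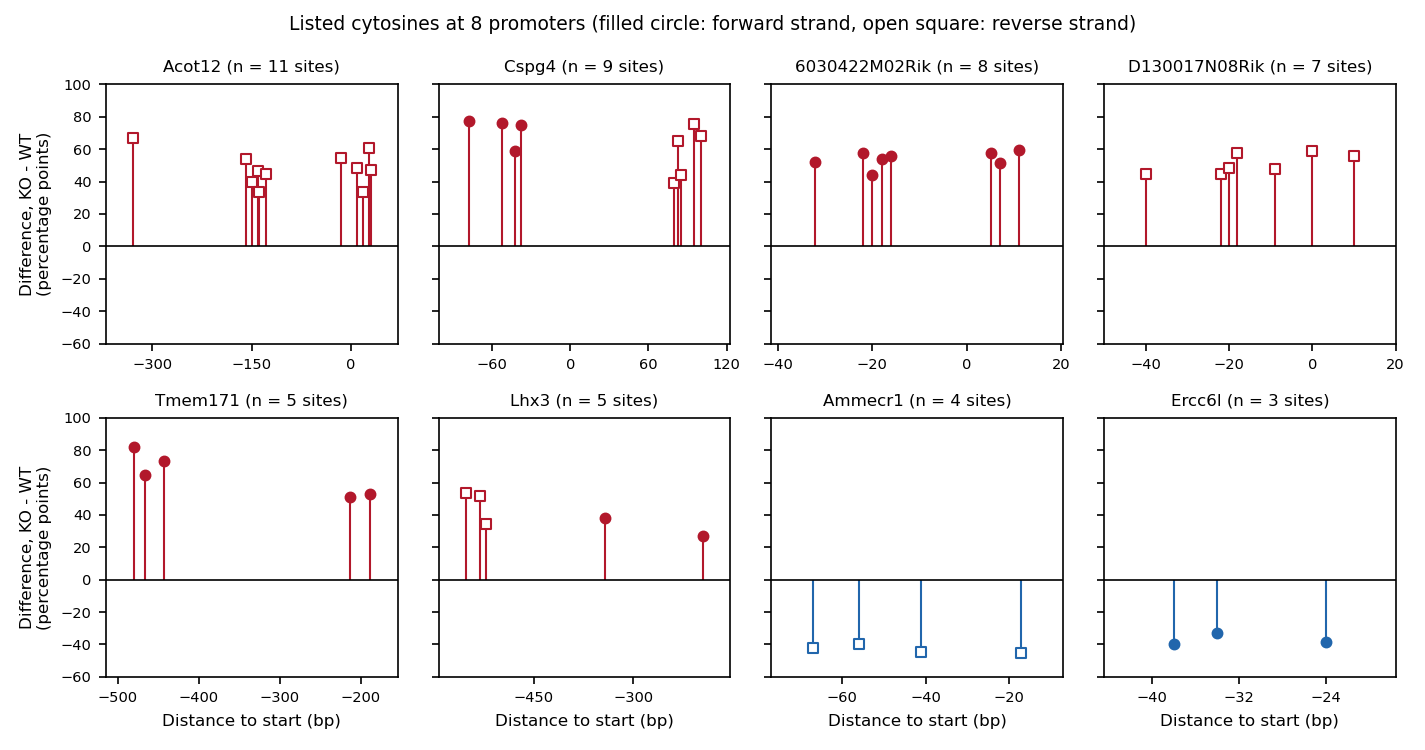
Methylation difference (y axis, Tet1 KO minus WT, percentage points) of each listed cytosine against its distance to the start (x axis, bp, its own scale in each panel) at 8 promoters; filled circles are forward-strand and open squares reverse-strand cytosines. The first 6 promoters are hypermethylated and Ammecr1 and Ercc6l hypomethylated; Cspg4 shows 2 groups either side of the start, and Ammecr1 and Ercc6l lie between -33.1 and -45.1.

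Among genes with at least 3 sites, Col11a2, a cartilage collagen gene, had a mean of 64.0 percentage points over 3 sites from -905 to -871 bp. Otop3, a proton channel gene, averaged 57.9 percentage points over 3 sites and Cpne7, a copine gene, 57.1 over 4. Rps4x, an X-linked ribosomal protein gene, averaged 56.0 over 3 sites, with 67.5, 62.0 and 38.5 percentage points at -870, -890 and -908 bp in the authors' deposited table.

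Only 3110056O03Rik had promoter sites in both directions. Its 2 sites lie 21 bp apart on the forward strand of chromosome 10, with 36.6 percentage points at 80318892 and -28.9 at 80318913 in the authors' deposited table. Both are promoter sites of another transcript, at 872 and 893 bp after the nearest start. Of the 429 hypermethylated promoter genes 10 had hypomethylated sites elsewhere, among them Pdha1. Its 5 promoter gains of 31.2 to 40.3 percentage points stood beside 1 site of -44.1 outside the promoter.

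The 17 hypomethylated promoter genes held 22 sites, and only Ammecr1 and Ercc6l had more than 1. Ammecr1, an X-linked gene of a conserved nuclear protein, had 4 reverse-strand sites on chromosome X (139401288 to 139401338). They stood at -45.1, -44.4, -39.6 and -42.3 percentage points at -17, -41, -56 and -67 bp in the authors' deposited table. Ercc6l, an X-linked helicase gene of mitosis, had 3 forward-strand sites (99352454 to 99352468) of -39.5, -33.1 and -38.6 percentage points at -38, -34 and -24 bp. Both clusters lie just upstream of the start and their values overlap. By position the promoter of Rps4x (99384580 to 99384618), which was hypermethylated, lies near that of Ercc6l.

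The other 6 X-linked genes had 1 site each. Fhl1, a LIM domain protein gene of muscle, had -45.0 percentage points at -491 bp, and Fgf13, a growth factor family member that acts inside the cell, had -42.3 at -368 bp. Mtcp1, a gene found at translocations of mature T-cell leukaemia, had -36.6 at 252 bp, and Klf8, a Krüppel-like transcription factor gene, -34.9 at 88 bp. The import gene Timm17b of mitochondria had -33.2 percentage points at 63 bp, and Mid1, a ubiquitin ligase gene, -26.4 at -25 bp. The sites of Mtcp1 and Timm17b are promoter sites of a transcript other than the nearest.

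On autosomes Adcy3, an adenylate cyclase gene, had the largest promoter loss, -55.3 percentage points at -293 bp. The cadherin 11 pseudogene 6820431F20Rik followed with -46.2 at -709 bp, and Sema4b, a semaphorin gene, with -39.5 at -89 bp. Vrtn, a gene of vertebral number, had -32.0 percentage points at 593 bp, and Flcn, the folliculin tumour suppressor gene, had -29.4 at 192 bp. C1qtnf7, a secreted C1q family gene, had -29.0 at -200 bp. Jag2, a Notch ligand gene, and Serpina1a, an alpha-1 antitrypsin gene, were nearest to the threshold of the table, with -25.9 and -25.8 percentage points. The sites of Vrtn, Flcn and Serpina1a are promoter sites of a transcript other than the nearest. No hypomethylated promoter gene had another hypomethylated site, while Vrtn had 2 and C1qtnf7 had 1 hypermethylated site elsewhere.

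Hypomethylated promoter sites were thus often X-linked. On X lay 13 of the 22 sites (59.1%, 36.3 to 79.3%) and 8 of the 17 genes (47.1%, 23.0 to 72.2%). Without Ammecr1 and Ercc6l, left out after their values were seen, the share of genes was 40% (16.3 to 67.7%). Of the hypermethylated promoter genes 14 of 429 were X-linked (3.26%, 1.80 to 5.42%). Outside promoters 33 of 464 hypomethylated sites were on X (7.11%), 18 of them at G530011O06Rik, a non-promoter cluster, and 15 of 446 (3.36%) without that gene.

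X-linked sites of both directions were often in promoters. Of the listed X sites 24 of 84 hypermethylated (28.6%, 19.2 to 39.5%) and 13 of 46 hypomethylated (28.3%, 16.0 to 43.5%) were promoter sites. The shares on autosomes were 11.0% of 6186 hypermethylated sites (10.2 to 11.8%) and 2.05% of 440 hypomethylated sites (0.940 to 3.85%). Within 100 bp of a start lay 13 of the 24 hypermethylated promoter sites on X and 179 of the 679 on autosomes. For hypomethylated sites these were 10 of 13 on X and 1 of 9 on autosomes. The 13 sites on X came from 8 genes, with 7 of the sites at Ammecr1 and Ercc6l. The 9 autosomal sites came from 9 genes. Over sites, the X-linked losses had a median of -39.5 percentage points and the autosomal losses one of -29.4, with ranges that overlap. How many X-linked and autosomal promoter CpGs were read is unknown, as is the sex of the mice. The part of either in these shares was not tested.

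The 14 hypermethylated X-linked promoter genes were 1810030O07Rik, C77370, Cnksr2, Dgkk, Elf4, Hs6st2, Nrk, Ogt, Pdha1, Rai2, Rbm3, Rps4x, Sowahd and Syap1. None of these had a hypomethylated promoter site, and among all 445 promoter genes 1 had both. Their 24 sites had a median of 42.2 percentage points and ranged from 25.7 to 67.5.

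By gene type, 391 of the 429 hypermethylated promoter genes (91.1%, 88.0 to 93.7%) were protein-coding, against 89.6% of all 3018 genes with listed hypermethylated sites (88.4 to 90.6%). Non-coding RNA genes numbered 37, with 79 promoter sites of median 46.7 percentage points beside 40.4 at protein-coding genes. Both medians are over sites, so genes with many sites, such as 4933431E20Rik and D130017N08Rik, weigh more, and no median over genes was taken by type. Of the 17 hypomethylated promoter genes 16 were protein-coding and 1 was a pseudogene. For 287 of the 429 hypermethylated genes the promoter sites were the only listed sites, and 134 (31.2%, 26.9 to 35.9%) had further hypermethylated sites elsewhere.

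Gene lists and name classes were read against the 13.3% (12.2 to 14.5%) of all 3344 listed genes that had a promoter site. Developmental transcription factors, which set cell identity in the embryo, stood at 6 of 99 listed members (6.06%, 2.26 to 12.7%). The upper bound lies just below the share of all listed genes, and no interval was adjusted for the number of lists and classes read. So narrow a margin does not set these factors apart from all listed genes. Those 6 were Lhx3, a pituitary homeobox gene with 5 sites, and Gbx2, Hmx1, Nr2e1, Twist2 and Wt1 with 1 each. The list of developmental factors left out genes such as Tbx6, Hes3 and Hhex, which had hypermethylated promoter sites too. How far its share depends on the choice of members was not tested. In the authors' deposited table Lhx3 had 53.4, 51.4 and 34.3 percentage points at -552, -531 and -521 bp and 38.0 and 27.0 nearer the start. Twist2 had 45.3 percentage points at -989 bp, Gbx2 36.6, Nr2e1 36.4, Hmx1 31.4 and Wt1 26.8. The Wt1 site lies 742 bp after the nearest start and is a promoter site of a transcript other than the nearest. The same list had 266 hypermethylated sites outside promoters, where 5567 of all 6270 hypermethylated sites lay.

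Ion channel genes, a class taken by symbol that takes in channel partners such as Kcnip2 and Grip2 and leaves out Cnga3, had promoter sites at 19 of 87 listed members (21.8%, 13.7 to 32.0%). Their 26 sites, all hypermethylated, had a median of 46.4 percentage points. Collagens and other matrix genes had them at 8 of 47 (17.0%, 7.65 to 30.8%), with 25 sites of median 50.1 percentage points, 9 of them at Cspg4. Solute carriers stood at 9 of 64, zinc finger genes at 7 of 64, cadherins at 4 of 29 and the families of G protein-coupled receptors that were searched by symbol at 5 of 52. That search left out receptor genes such as Avpr1a, Oxtr, Hrh1, Hcrtr1 and Cnr1, which had hypermethylated promoter sites too. The intervals of these classes include the share of all listed genes except that of the ion channels, whose lower bound lies just above it. How far the ion channel share depends on the choice of members was not tested. No interval was adjusted for the number of lists and classes read, so so narrow a margin does not set the ion channels apart from all listed genes. Genes with RIKEN clone names had promoter sites at 36 of 317 (11.4%, 8.08 to 15.4%) and genes with Gm or other provisional symbols, such as D5Ertd579e, at 13 of 173 (7.51%, 4.06 to 12.5%). The genes C130026L21Rik and C330005M16Rik count in both of these classes. Olfactory and vomeronasal receptor genes had none of 18, which allows a share of up to 18.5%.

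**Figure D4:**
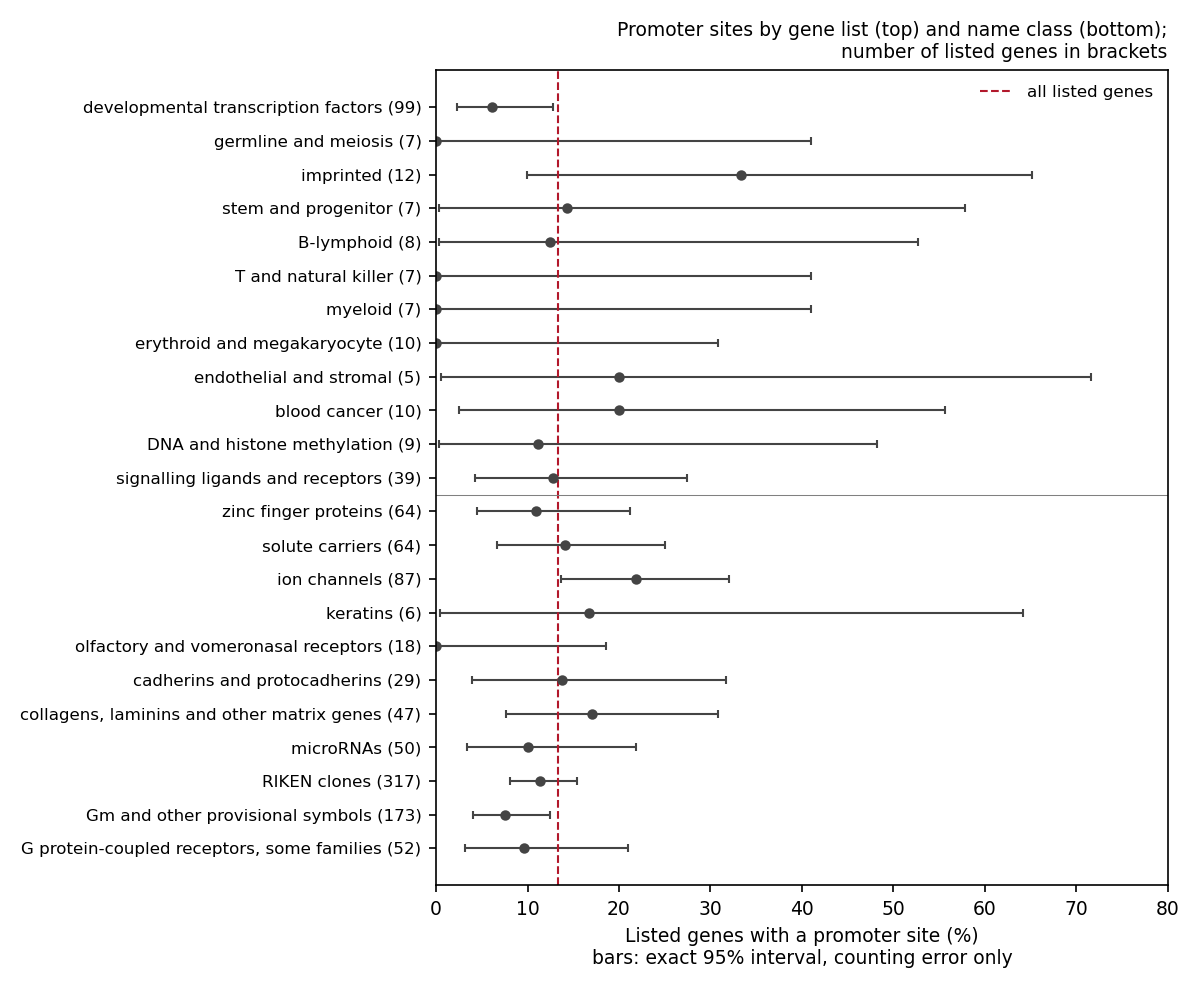
Share of listed genes that had a promoter site (x axis, %) for each gene list (upper block) and each class taken by gene symbol (lower block), with the number of listed genes in brackets. Points are shares, bars exact 95% intervals for counting error, and the dashed line the 13.3% of all listed genes. With the members as chosen here, the interval of developmental transcription factors ends just below the line and that of ion channels begins just above it. The intervals are not adjusted for the number of lists and classes shown. Gm and other provisional symbols lie below it too, and the other intervals cross it.

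Imprinted genes, which are expressed from a single parental copy, had promoter sites at 4 of 12 listed members (33.3%, 9.93 to 65.1%). Kcnq1, a potassium channel gene of an imprinted cluster, had 46.0 percentage points at -171 bp. Grb10, a growth-restraining adaptor gene, had 35.7 at -428 bp, and Rasgrf1, an exchange factor gene, 36.9 at -683 bp. Nrip3 had 35.0, 48.5 and 35.0 percentage points at -222, -241 and -252 bp in the authors' deposited table. All were gains, and with 12 listed members the interval includes the share of all genes.

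The lists of blood cell genes were small, and each of their intervals includes the 13.3% of all listed genes. Hhex, a homeobox gene of early blood progenitors, was the only one of 7 listed stem and progenitor genes, with 35.7 percentage points at -424 bp. Pax5, the factor that commits cells to the B lineage, was the only one of 8 listed B-lymphoid genes, with 31.5 at -405 bp. None of 7 listed T and natural killer genes, 7 myeloid genes and 10 erythroid and megakaryocyte genes had one, which allows shares of up to 41.0%, 41.0% and 30.8%. These lists had 14, 7 and 24 hypermethylated sites outside promoters. Among 10 listed blood cancer genes Pax5 and Wt1 had promoter sites, and none of 7 germline genes did. The site of Wt1, as given above, is a promoter site of a transcript other than the nearest.

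Signalling ligand and receptor genes had promoter sites at 5 of 39 listed members (12.8%, 4.30 to 27.4%). Gdf7, a BMP family ligand gene, had 60.6 percentage points at -687 bp, Wnt10a 50.0 at 57 bp, Dhh, a hedgehog ligand gene, 36.6 at -308 bp and Wnt7b 36.4 at -970 bp. Jag2, described above, was the only loss among them. Of 9 listed DNA and histone methylation genes Ogt, whose enzyme adds a sugar to nuclear proteins and binds TET proteins, had 1 site of 32.3 percentage points at -178 bp. Cspg4 was the only one of 5 listed endothelial and stromal genes.

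MicroRNA genes had promoter sites at 5 of 50 listed members (10%, 3.33 to 21.8%), all gains, with 10 sites of median 56.8 percentage points. For these genes the annotated start is that of the hairpin and not of the longer primary transcript. Mir671 had 67.2, 55.1, 58.5, 68.1 and 62.4 percentage points from -810 to -783 bp in the authors' deposited table, and Mir9-2 had the 2 sites given above. The others had 1 site each, 55.0 percentage points at Mir695, 54.7 at Mir5126 and 38.0 at Mir191. The mature sequences of the 2 microRNA genes with more than 1 site are printed from RefSeq (GRCm38.p6, chr5:24592132-24592154 for miR-671-5p and chr13:83738821-83738843 for miR-9-5p, both plus strand), with the seed in capitals. Their seeds differ from each other.
miR-671-5p: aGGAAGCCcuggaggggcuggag
miR-671-3p: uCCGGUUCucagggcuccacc
miR-9-5p: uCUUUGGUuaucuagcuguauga
miR-9-3p: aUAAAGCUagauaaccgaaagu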

How the data were processed

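Methylation was measured by RRBS in 3 Tet1 KO and 3 WT samples of LSK cells. The authors deposited 2 tables of listed cytosines, and each deposited value is a methylation difference in percentage points over all samples, per the file headers. The submitters' processing notes name Bismark and mm9. The caller of the differences, the coverage minimum and any p-value threshold are not stated in these sources. Unmapped columns with a value per sample numbered 0, and the planned test over samples was not run because the tables hold no value per sample.

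Rows annotated as promoter were selected. The deposited sign of the distance turns with the strand of the cytosine, so it was turned back for reverse-strand sites. Neighbours with the same sign under 1000 bp apart formed 1 region. The gene is the one with the nearest start. Sequences and microRNAs came from RefSeq tables (GRCm38.p6), matched by gene identifier. Shares carry exact Clopper-Pearson 95% intervals, and the scripts were tested on simulated data (Python 3.11.15, pandas 2.3.3, scipy 1.17.1).

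Genes were named if they had a hypomethylated promoter site, at least 5 hypermethylated ones, 1 of the 10 largest means over at least 3 sites, 1 of the 5 largest single sites, sites in both directions, or the most promoter sites in a gene list (up to 4). A result that this rule names is not reported here. Sequences were printed for D130017N08Rik, Osmr, Mid1 and Sema4b by rule, since every listed cytosine of theirs met a CG. Those of Acot12, Cspg4 and Ammecr1, and the mature microRNAs, were added after their values were seen, as were values of other genes named for their class, strand pair or place on X. The members and lists were chosen with earlier results of these data known. Alternatives were a higher threshold, 1 strand, autosomes alone, other joining distances, a narrower window, and regions or genes in place of sites.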

Additional observations from a re-analysis of the deposited data

How the results depend on the processing

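With 16 results and 63 alternative values, 46 were labelled as the same, 17 as moved and 0 as reversed. The same means a count of similar size, or another value inside the interval of the reported one. Wide hypomethylated intervals take in large changes. The median distance was -39.5 bp as reported and -293 bp at 40 percentage points or more. The median difference was -37.6 percentage points as reported and -29.4 on autosomes. The moved counts follow from the sites each setting leaves out. Hypermethylated promoter sites numbered 376 at 40 percentage points or more, 359 on the forward strand and 460 within 500 bp of the start, and their regions 233 and 232 under the first 2 settings. Hypomethylated promoter sites numbered 7 at 40 percentage points or more, 9 on autosomes and 11 on the forward strand, and their regions 5, 9 and 9. The hypermethylated median was 39.4 over region means, 39.35 over gene means and 44.2 in regions of at least 2 sites; the cause was not tested. Hypomethylated promoter genes with at least 2 sites were 100% protein-coding (2 genes). Developmental transcription factors with at least 2 promoter sites made up 1.92% of listed members with at least 2 sites. The share with promoter annotation over all sites in place of genes was 10.7%.

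No paired analysis was possible because the tables hold no value per sample, and leaving out a replicate could not be run for the same reason. Depth, coverage and the unlisted CpGs are unknown, so no share here is a share of the CpGs read. The 22 hypomethylated sites give wide intervals.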
